A study of Mus musculus with 2 samples.

Results

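Semaphorins and ephrins are guidance signals that steer growing axons and migrating cells. ISL1 peaks listed under 10 genes of these families, which were chosen by the peaks deposited under them and not at random, were taken from a peak list of sinoatrial node cells: the class 3 semaphorin ligands Sema3a, Sema3c, Sema3d and Sema3e, the receptors Nrp1, Nrp2, Plxna2 and Plxna4, the ephrin ligand Efnb2 and the Eph receptor Epha4. A peak was counted for a gene when the authors' annotation named that gene as the one with the nearest transcription start site, at any distance. This gave 20 of the 1483 peaks in the list. The 20 peaks fell under 6 of the 10 genes, and Sema3e, Nrp1, Plxna2 and Plxna4 had none.

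ISL1 is a LIM-homeodomain transcription factor, and the sinoatrial node is the pacemaker tissue of the heart. The assay was chromatin immunoprecipitation with sequencing (ChIP-seq) of neonatal cells, taken at postnatal day 1 to 3 from Hcn4-H2BGFP mice on an ICR background. A histone fused to green fluorescent protein marked them through Hcn4, the gene of a pacemaker channel, and sorting used that signal. The series has 2 libraries, 1 of ISL1 chromatin and 1 of input DNA from the same kind of cells, of which the first was analysed through its peak list. Without a replicate no difference below was tested between preparations, and expression was not measured, so the sorted cells could not be checked against their marker transcripts.

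Class 3 semaphorins are secreted. They bind a neuropilin, which holds them in a complex with a plexin, and the plexin carries the signal into the cell, where it usually collapses the leading edge and repels the axon. In the mouse heart, Sema3a is known to pattern sympathetic nerve endings and Sema3c is required for the outflow tract to divide. Ephrins are tied to the membrane, so they meet Eph receptors only where cells touch, and both partners can signal. Efnb2, a transmembrane ephrin, is a classical marker of arterial endothelium.

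None of the 20 peaks carried the promoter annotation, against 48 of the 1483 peaks in the whole list (3.24%). A count of 0 in 20 allows a share of up to 16.8% (exact Clopper-Pearson, counting error only). The closest peaks to a start site were those of Nrp2 at 10.8 kb and Sema3c at 14.6 kb. The 250 bases before the start sites of these 2 genes and of Sema3a are shown because distances run from such start sites and none of the 20 peaks lay at one. They are RefSeq sequence of GRCm38.p6, whose start sites need not be those of the authors' annotation, and they are not peak sequences. Capitals mark TAAT on either strand, the core letters that homeodomain proteins recognise, and in Sema3a a match to the longer CTAATNG, which contains TAAT.
Sema3a (chr5:13396534-13396783, plus strand): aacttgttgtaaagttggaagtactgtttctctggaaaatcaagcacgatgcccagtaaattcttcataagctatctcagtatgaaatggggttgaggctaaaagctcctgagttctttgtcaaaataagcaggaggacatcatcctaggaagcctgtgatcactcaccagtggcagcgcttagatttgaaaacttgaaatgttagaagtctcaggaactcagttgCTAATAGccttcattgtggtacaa
Sema3c (chr5:17574566-17574815, plus strand): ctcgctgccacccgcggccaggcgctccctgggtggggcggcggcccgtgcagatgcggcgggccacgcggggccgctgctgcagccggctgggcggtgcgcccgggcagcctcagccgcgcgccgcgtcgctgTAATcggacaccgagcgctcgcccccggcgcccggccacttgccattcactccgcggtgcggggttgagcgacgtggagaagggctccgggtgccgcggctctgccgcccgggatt
Nrp2 (chr1:62703067-62703316, plus strand): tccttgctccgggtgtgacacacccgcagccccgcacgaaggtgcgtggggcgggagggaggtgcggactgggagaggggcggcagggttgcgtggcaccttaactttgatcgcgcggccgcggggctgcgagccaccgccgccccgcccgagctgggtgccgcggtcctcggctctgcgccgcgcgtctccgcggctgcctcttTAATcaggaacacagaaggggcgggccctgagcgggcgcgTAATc
The CTAATNG match in the Sema3a window begins 24 bases before the start. TAAT was present on either strand in 6 of the 9 windows found for the 10 genes, and in 54.9% of the 32851 windows of the table. CTAATNG was present in 1 of the 9, that of Sema3a, and in 5.07% of the 32851. The windows shown were added after the values were seen and each contains TAAT, so they do not stand for all 9. The sequence windows of Sema3c and Nrp2 had 78.4% and 72.4% G and C, and that of Sema3a 40.8%. A match of letters is a description and not a binding site, and the table held no window for Plxna4.

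The semaphorin ligands held 8 of the 20 peaks, and 6 of these 8 lay inside an intron of the gene they were listed under. All coordinates of peaks are mm9, all peaks are 144 bp from start to end, and the score is the authors' own number per peak. Sema3d, a ligand with roles in cardiac vein patterning in the mouse, had 3 peaks, each within its transcript NM_028882. The first lay in intron 1 of 17 at chromosome 5 12410132 to 12410276, 27.0 kb downstream of the start site, with a score of 17.8. This was the highest score of the 20 peaks, and it held rank 322 in the list together with other peaks of the same score. The second lay in intron 8 at 12530140 to 12530284 (score 15.1), 120 kb further on. The third lay in intron 16 at 12574218 to 12574362 (score 10.9), 44.1 kb beyond the second. The peaks thus covered the gene from its first intron to near its end, with scores of 17.8, 15.1 and 10.9 in that order.

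Sema3a, the founding repellent of the class, also had 3 peaks, on both sides of its start. An intergenic peak of score 16.4 lay 259 kb upstream at chromosome 5 13137500 to 13137644. An intronic peak of score 15.1 lay in intron 7 of 17 at 13527261 to 13527405, and another of score 12.3 in intron 12 at 13568571 to 13568715. The intronic pair was 41.3 kb apart. The annotation used 2 start sites of Sema3a that lie 2.52 kb apart, which is small beside these distances.

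Sema3c had 2 peaks that flanked its start site at close range. The upstream one, of score 15.1, was intergenic at chromosome 5 17065926 to 17066070, 14.6 kb from the start. The downstream one, of score 13.7, lay in intron 2 of 17 at 17107642 to 17107786, 27.1 kb from the start. The 2 peaks were 41.7 kb apart, and no other peak of the list lay within 1 Mb of the Sema3c start site. Of the 3 semaphorin genes with peaks, Sema3c was the one whose peaks all lay within 30 kb of the start.

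Sema3a, Sema3c, Sema3d and Sema3e share chromosome 5. In the deposited distances the start sites of Sema3d and Sema3a are 1.02 Mb apart and those of Sema3a and Sema3c 3.68 Mb. Sema3e, whose protein is known to bind plexin D1 without a neuropilin, stands between Sema3a and Sema3c in the gene order of the RefSeq table and had no peak. Its neighbour Pclo, the gene of a presynaptic scaffold protein, held 1 peak of score 13.7 in its own intron 3. The next peak along, of score 16.4, was listed under Hgf, the gene of hepatocyte growth factor. From the Sema3d start site to the last Sema3c peak the list held 10 peaks in 4.72 Mb, or 2.12 per Mb (exact Poisson 95% interval 1.01 to 3.89). Chromosome 5 held 0.501 peaks per Mb between its first and last peak. The stretch was bounded by the genes chosen, so the higher density is a description and not a test.

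**Figure D1:**
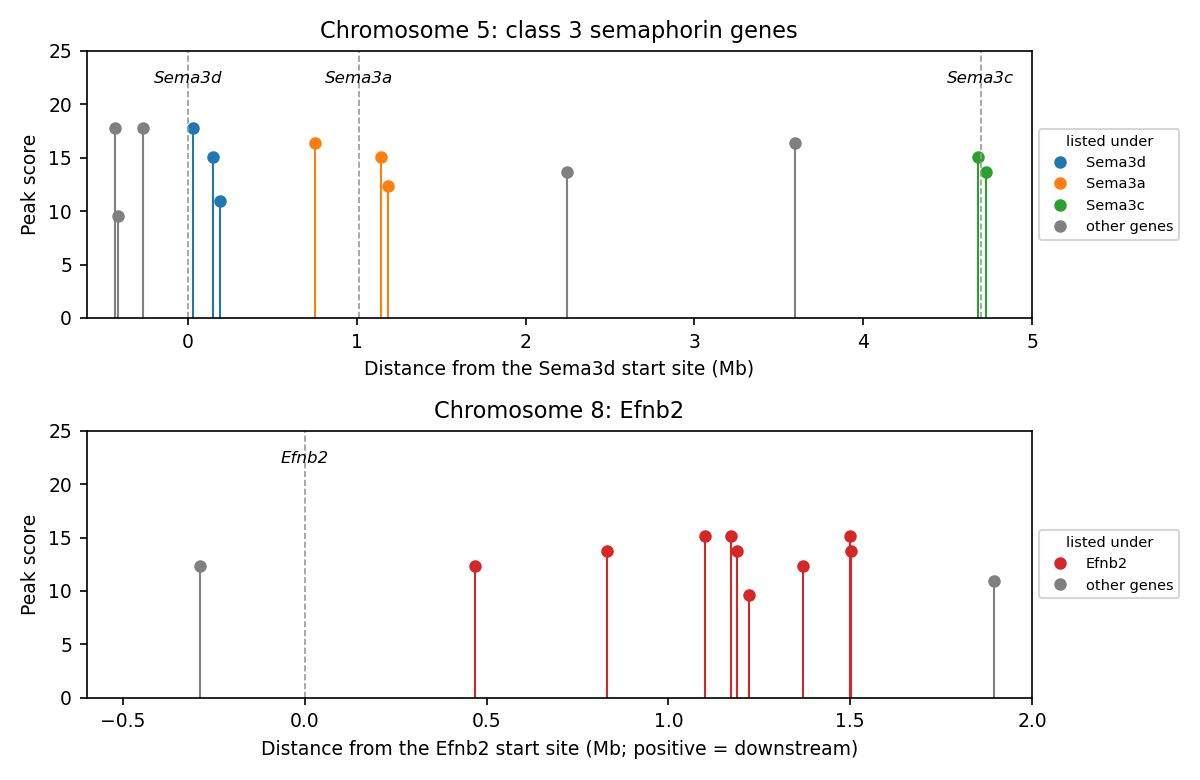
Peak score (y axis) by distance from the Sema3d start site on chromosome 5 (upper panel) and from the Efnb2 start site on chromosome 8 (lower panel), in Mb along the x axis; each stem is 1 peak, coloured by the gene it was listed under, and dashed lines are start sites. Of the 8 semaphorin peaks, 6 sit inside their gene, 1 lies 14.6 kb upstream of Sema3c and 1 lies 259 kb upstream of Sema3a. The 9 Efnb2 peaks all sit 469 kb or more downstream of the start.

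Neuropilins are the binding subunits of the semaphorin receptor, and Nrp1 also serves vascular endothelial growth factor. Nrp2 had 2 peaks, both upstream of its start site. The nearer one lay at chromosome 1 62739066 to 62739210, 10.8 kb away and intergenic, with a score of 10.9. The farther one lay at 62354604 to 62354748, 395 kb away with a score of 13.7, inside intron 16 of 22 of the polarity gene Pard3b. That peak had a focus ratio of 0.929, the highest of the 20, on a scale where the list had a median of 0.739. Neither Nrp1 nor any of the 5 genes on either side of it, in the RefSeq order of genes with a curated transcript, was nearest to a peak.

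The plexins of the list had no peak. Plxna2 and Plxna4 encode signalling subunits that pair with neuropilins, and Plxna4 carries Sema3a signals in sympathetic and sensory neurons. No peak was listed under the 5 genes before or the 5 genes after Plxna2 in the same order. Beside Plxna4, 1700012A03Rik was nearest to 1 peak of score 15.1 at 163 kb from its start site, and none of the other 9 genes was. In the plexin family as a whole, 0 of 9 genes was nearest to a peak, where 3.82% of all genes with a curated transcript were, so the count is near that background and is no result about plexins.

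Efnb2 had 9 peaks, more than any other of the 10 genes and 9 of their 20. All 9 were intergenic and all lay downstream of its start site, far past the gene, from 469 to 1501 kb. Listed from the farthest inward, the first pair lay 823 bp apart at chromosome 8 7159409 to 7159553 (score 13.7) and 7160232 to 7160376 (score 15.1). They were followed by 7289459 to 7289603 (score 12.3). Then came 3 peaks with gaps of 32.2 and 16.8 kb, at 7440389 to 7440533 (score 9.58), 7472575 to 7472719 (score 13.7) and 7489382 to 7489526 (score 15.1). The next, at 7559830 to 7559974 (score 15.1), lay 70.4 kb on. The last 2 were at 7830591 to 7830735 (score 13.7) and 8191928 to 8192072 (score 12.3).

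The Efnb2 peaks were unevenly spread. The 7 farthest from the gene spanned 400 kb, and gaps of 271 and 361 kb separated the remaining 2. Between the first and the last of the 9 no peak was listed under another gene, and the stretch of 1.03 Mb had 8.72 peaks per Mb (exact Poisson 95% interval 3.99 to 16.5), against 0.652 on the autosomes. Because the stretch was cut at its own end peaks, that density is a description. It is not particular to Efnb2: the ephrin gene Efna5, cut in the same way, had 7.19 per Mb (2.89 to 14.8). The 9 peaks of the gene Tfec spanned 553 kb, the 10 of Unc5c 185 kb and the 11 of 1700019E08Rik 1581 kb. A peak of score 10.9 lay 393 kb farther out than the Efnb2 peaks and was listed under Slc10a2, a bile acid transporter gene. In the order of genes with a curated transcript, only the noncoding Gm17215 stands between Slc10a2 and Efnb2. On the other side, an intergenic peak of score 12.3 at 8947932 to 8948076 was listed under the noncoding gene 4933430N04Rik. It lay 287 kb upstream of the Efnb2 start site, closer to it than any of the 9. A listing under Efnb2 says only that its start site is the nearest, and the files hold no measure of which gene these peaks act on.

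Few genes had as many peaks as Efnb2. Among the 1003 nearest genes, 728 had 1 peak and 4 had 9 or more: 1700019E08Rik with 11, the netrin receptor gene Unc5c with 10, and Efnb2 and the transcription factor gene Tfec with 9 each. The 11 peaks of 1700019E08Rik were all intergenic at 91.3 to 1400 kb. Tfec had 8 of 9 intergenic at 11.1 to 564 kb. The 10 peaks of Unc5c lay within 116 kb and 9 were intronic. Of the 30 peaks in the list that lay beyond 1 Mb from any start site, 7 belonged to Efnb2, and the next highest number for a gene was 3.

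Epha4, a receptor tyrosine kinase that binds ephrins of both classes, had 1 peak. It lay at chromosome 1 77843510 to 77843654, 332 kb upstream and intergenic, with a score of 15.1. Its closest neighbour in the list was 941 kb away, so this was the most isolated of the 20 peaks.

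**Figure D2:**
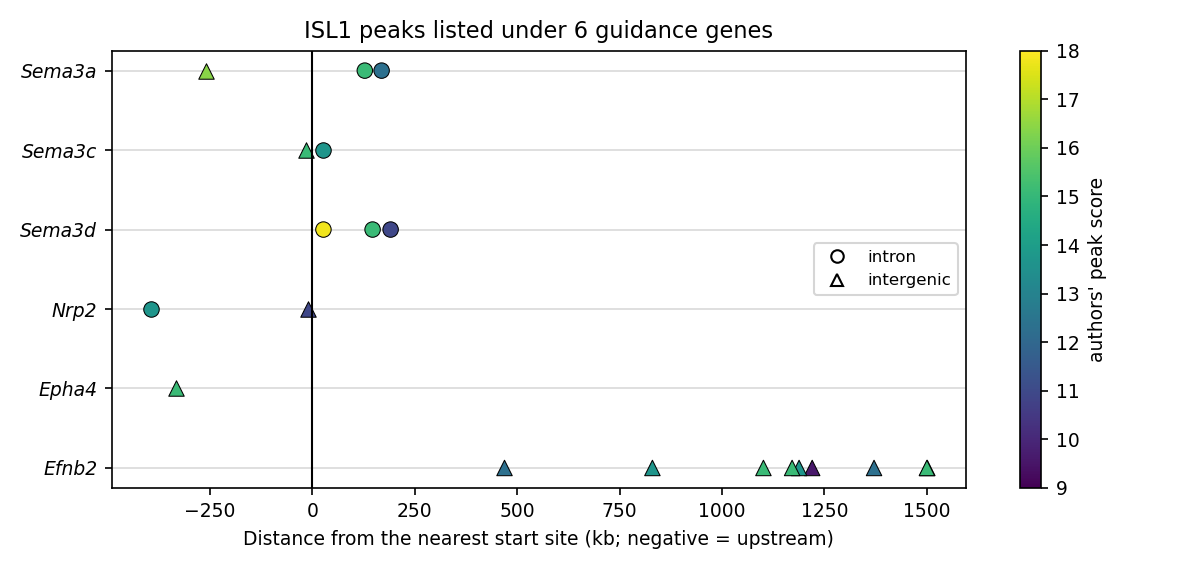
Signed distance from the nearest start site in kb (x axis; negative is upstream) of the 20 peaks, 1 row per gene; circles are intronic and triangles intergenic peaks, and colour gives the authors' peak score. Peaks of Sema3c flank the start at 14.6 and 27.1 kb, and those of Efnb2 all lie downstream from 469 to 1501 kb.

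The scores of the 20 peaks had a median of 13.7 and a range of 9.58 to 17.8, against a median of 15.1 and a range of 8.21 to 84.8 for the 1463 other peaks. Without Efnb2 the median of the remaining 11 was 15.1, the same as that of the others. None of the 20 peaks exceeded a score of 20, a value passed by 252 of the others (17.2%). Only the Sema3d peak in intron 1 reached the 75th percentile of the list. All scores of the list were whole multiples of a step of 1.37. If a step stands for 1 sequenced tag, which the files do not state, the lowest of the 20, an Efnb2 peak, stands for 7 tags (2.81 to 14.4, exact Poisson 95% interval). The highest, of Sema3d, would stand for 13 (6.92 to 22.2). These intervals overlap for every pair of the 20 peaks, so no order among their scores stands beyond counting error. They cover counting error only.

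**Figure D3:**
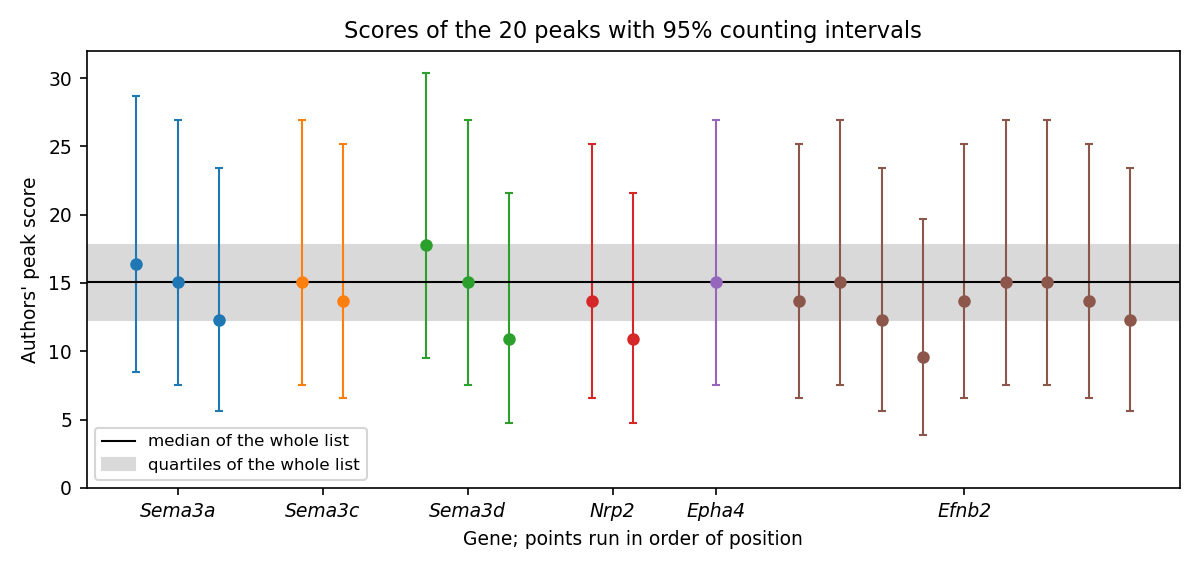
Authors' peak score (y axis) of each of the 20 peaks, by gene along the x axis; bars are exact Poisson 95% intervals under the assumption of 1 tag per score step, the line is the median of the whole list and the band its quartiles. All 20 intervals overlap, and the 20 points range from 9.58 to 17.8.

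The distances were long. The median distance of the 20 peaks to the nearest start site was 364 kb, with quartiles of 142 and 1176 kb, against a median of 82.9 kb and quartiles of 30.2 and 194 kb for the 1463 others. Within 100 kb lay 4 of the 20 (20%, exact Clopper-Pearson interval 5.73 to 43.7), against 818 of the others (55.9%, 53.3 to 58.5). Without the 9 Efnb2 peaks the median of the other 11 was 147 kb. Of the 20, 7 were intronic (35%, 15.4 to 59.2), against 598 of the others (40.9%, 38.3 to 43.4). Without Efnb2, 7 of 11 were intronic (63.6%, 30.8 to 89.1). The intervals treat peaks as independent, which peaks of 1 locus are not, and the distance was part of how a peak came to be listed, so these differences are given without a test.

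**Figure D4:**
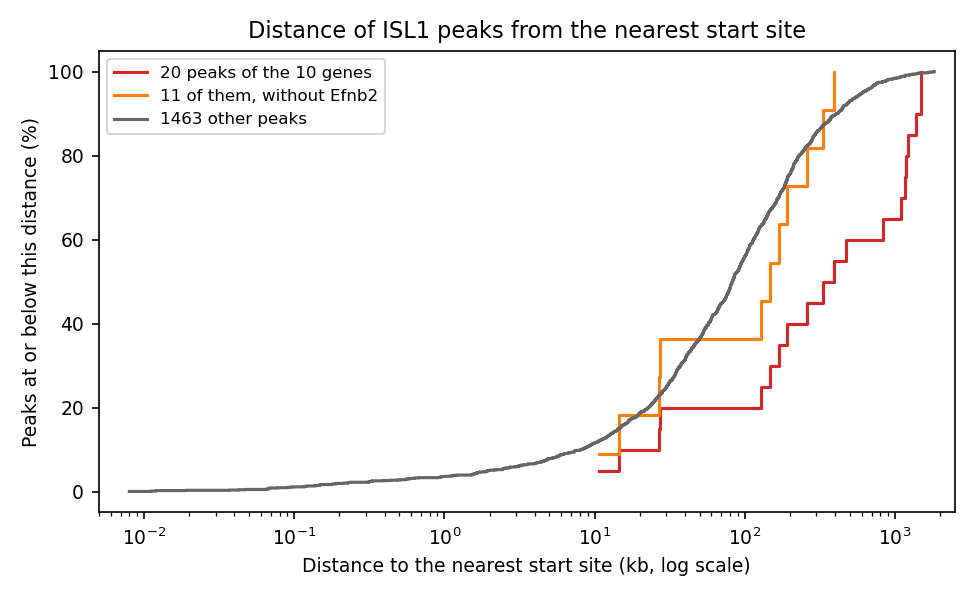
Share of peaks in percent (y axis) at or below a given distance to the nearest start site in kb (x axis, log scale), for the 20 peaks, for the 11 of them not listed under Efnb2, and for the 1463 other peaks. The 20 peaks have their median at 364 kb, the 11 at 147 kb and the others at 82.9 kb.

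The genes were picked with the peaks under them known, and a gene with several peaks tends to have close ones, so spacing is given as a description. Another peak of the list lay within 50 kb of 11 of the 20 (55%, exact Clopper-Pearson interval 31.5 to 76.9), against 420 of the 1463 others (28.7%, 26.4 to 31.1). The 11 were 6 semaphorin peaks, 2 under each of Sema3a, Sema3c and Sema3d, and 5 under Efnb2. Within 10 kb there were 2, the Efnb2 pair, against 197 of the others (13.5%). A median of 3 other peaks lay within 500 kb of each of the 20, against 1 for the rest of the list. The median was 7 for the Efnb2 peaks, many of which count one another, and 2 for the 11 without Efnb2. None of the 20 was annotated as lying on a repeat, against 116 of the others (7.93%). The focus ratio, the authors' fraction per peak, had a median of 0.744 in the 20 and 0.739 in the others.

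By gene, 6 of the 10 (60%) were nearest to a peak, where 3.82% of the 26220 genes with a curated transcript were. Within 100 kb the count was 3 of 10, namely Sema3c, Sema3d and Nrp2, where 2.57% of all genes were. The 10 genes were picked with these peaks known, so nothing follows from their share. Of 84 genes of the 2 pathways, 74 are not among the 10, and 12 of these 74 were nearest to a peak (16.2%), again where 3.82% of all genes were. Within 100 kb the count was 6 of the 74 (8.11%), where 2.57% of all genes were. The pathway list was also chosen with earlier results of these data known, so nothing follows from the shares of the 74 either. A gene that is long or stands alone has more chances to be the nearest, and these shares are not corrected for gene length or spacing. The 26220 genes also include noncoding ones, and no share is given for protein-coding genes alone.

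Among ligands outside the 10, Efna5, a membrane-anchored ephrin, resembled Efnb2. It had 7 peaks with scores of 9.58 to 19.2, of which 6 were intergenic and lay 419 to 777 kb downstream of its start site, and 1 lay upstream in an intron of the neighbouring gene Fbxl17. A pair of them was 705 bp apart, at chromosome 17 62810813 to 62810957 (score 19.2) and 62811518 to 62811662 (score 15.1). The other 6 ephrin genes had none. Of 13 semaphorins outside class 3, Sema6d had 2 peaks, the higher of score 19.2 in intron 4 of transcript NM_001290997, and Sema5a had 1 of score 16.4 in intron 5. Sema3b, Sema3f and Sema3g had none. A peak was thus listed under 2 of 8 ephrin genes (25%), where 3.82% of all genes had any. For class 3 semaphorins the count was 3 of 7 (42.9%), and for the other semaphorins 2 of 13 (15.4%). The pathway list was chosen with earlier results of these data known, so nothing follows from these shares.

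Of the 14 Eph receptors, 4 had 1 peak each, where 3.82% of all genes had any. None of the 14 had one within 100 kb, which is near the 2.57% of all genes. Besides Epha4 the 4 were Epha3 (score 13.7, intron 3), Epha5 (10.9, intron 3) and Epha7 (12.3, intergenic at 652 kb). The other 10, all 5 Ephb genes of the list among them, had none. Of 5 membrane partners, Chl1, which encodes an adhesion molecule that acts with neuropilin, had 1 peak at 191 kb (score 16.4). The other 4 had none, so the share was 20%, where 3.82% of all genes had any. Of 26 cytoplasmic partners, 5 had a peak (19.2%), where 3.82% of all genes did. All 5 had one within 100 kb, where 2.57% of all genes did. These receptors and partners come from the pathway list, which was chosen with earlier results known, so nothing follows from their shares. Farp1, a guanine nucleotide exchange factor gene, had 2 in intron 2 at 73.2 and 98.9 kb (scores 16.4 and 17.8). Dpysl3, of the family that relays semaphorin signals to the cytoskeleton, had 2, the nearer at 4.81 kb in intron 1 (score 17.8). Grip1, Vav3 and Tiam1 had 1 each, with scores of 13.7, 9.58 and 12.3.

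**Figure D5:**
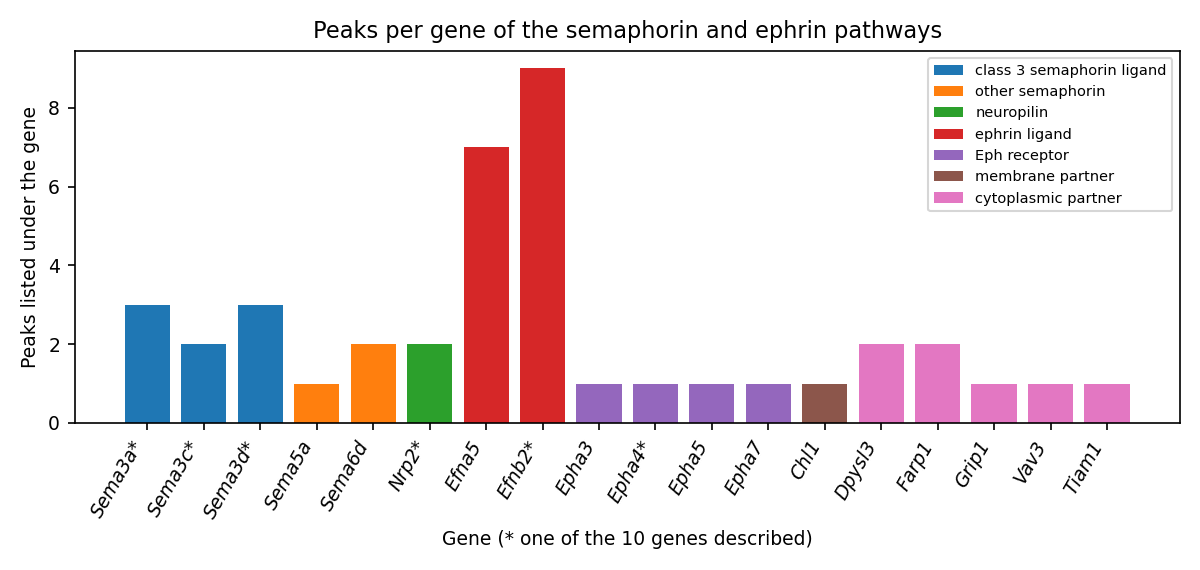
Number of ISL1 peaks (y axis) listed under each of the 18 pathway genes that had any, out of 84, ordered and coloured by role along the x axis; asterisks mark the genes described here. Efnb2 with 9 and Efna5 with 7 stand above the rest, which have 1 to 3. The 18 are 21.4% of the 84, where 3.82% of all genes had a peak, and the list was chosen with earlier results known.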

How the data were processed

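Chromatin was crosslinked with disuccinimidyl glutarate and then formaldehyde, per the labels' protocols. The first agent links proteins to each other, so ISL1 may be held at a peak through a partner. Bowtie, HOMER and the build mm9 are named per the submitters' processing notes, and the sources used here do not give their versions, the caller's settings or the use of the input. Peaks were annotated with annotatePeaks.pl on mm9, per the file headers, from 1 library without pooling. The deposited peak score and the deposited focus ratio, a fraction, are the authors' values, and they served only to describe and filter peaks of this list. The sign of the deposited distance is positive downstream.

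Values were computed with Python 3.11.15, pandas 2.3.3, numpy 2.4.6 and scipy 1.17.1. The score step was found as the largest number whose multiples, rounded to 3 digits, match all scores, with 0 exceptions. Start sites in mm9 were recovered from peak centres and deposited distances. Spacing was taken from peak start to peak start. Gene names, gene order and the background came from a RefSeq table of GRCm38.p6, to which 1002 of 1003 nearest genes matched by Entrez identifier. Gene order and background kept only genes with a curated transcript. No coordinate was converted between builds. No genome of the mm9 build was used, so motifs were searched in promoter windows of 250 bases and not in peaks. The input library was not analysed here. Intervals are at the 95% level. Step search, spacing and intervals were tested on simulated data.

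The 10 genes and the pathway list of 84 genes were chosen with earlier results of these data known. Named were the 10 genes, each pathway gene with a peak, host genes and neighbours of their peaks, and the genes with as many peaks as Efnb2. Genes without a peak, the neighbours named by place in gene order and the sequences printed were added to complete counts after the values were seen. Alternatives were 2 score thresholds, removal of repeats, merging of close peaks, peaks in the host gene, a limit of 100 kb, other spacing limits and, chosen after seeing the data, removal of Efnb2.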

Additional observations from a re-analysis of the deposited data

How the results depend on the processing

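No paired analysis was possible because there is 1 ISL1 library, and no replicate could be left out. Of 51 recalculated values, 34 stayed within 1.5 times or within the counting interval, and 17 moved. Removing peaks on repeats, merging peaks within 1 kb and adding peaks inside a member's transcript moved none of them. None of the 20 lay on a repeat, and every peak inside a member's transcript was already listed under that gene. The repeat and transcript settings therefore kept the same 20 peaks, and their values among the 34 are no sign of stability. With peaks at or above the median score, 9 of the 20 peaks were left under 5 genes, and 11 pathway genes had a peak. Neighbours were then counted only among the peaks kept. Of the 9, 0% had another within 50 kb, against 19.8% of all peaks kept. The higher share of the 20 was not seen there. A count of 0 in 9 allows a share of up to 33.6% (exact Clopper-Pearson, counting error only), so it cannot be told from 19.8%. At or above the 75th percentile, 1 peak and 1 gene were left, Sema3d, with a median score of 17.8 and a median distance of 27.0 kb. It was 100% intronic, and 0% had a neighbour within 50 kb, against 17.7% of all peaks kept. At this threshold 5 pathway genes had a peak. Within 100 kb, 4 peaks under 3 genes were left at a median of 20.8 kb, and 9 pathway genes had a peak. With a spacing limit of 10 kb, 10% had a neighbour. Without Efnb2, an alternative chosen after seeing the data, 11 peaks were left and 63.6% were intronic. The median distance fell from 364 to 147 kb. It was counted as unmoved because 147 kb is the lower end of its wide interval of 147 to 1171 kb. The score, distance and gene settings keep fewer peaks by construction, and the spacing limit keeps all 20. If a score step is 1 tag, depth limits comparisons of single scores among the 20 peaks.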

Other observations

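Peaks with higher scores than those of Nrp2 lay on either side of it, listed under other genes and mostly far from its start site. Pard3b, the neighbouring polarity gene that hosts the far Nrp2 peak, was itself nearest to 3 peaks. The highest, of score 24.6, was intergenic at chromosome 1 61577012 to 61577156, 108 kb from the Pard3b start site. It lay more than 1 Mb from the Nrp2 start site. The next, of score 21.9, lay in intron 2 at 61826520 to 61826664, 923 kb upstream of the Nrp2 start site. The third, of score 10.9, lay in the same intron at 61988856 to 61989000, 761 kb upstream of the Nrp2 start site. On the far side of Nrp2, the noncoding gene 4930487H11Rik was nearest to a peak of score 16.4 that lies 157 kb downstream of the Nrp2 start site. Beside Sema3d, 4933402N22Rik was nearest to 3 intergenic peaks, with scores of 17.8, 9.58 and 17.8, that lie 430, 412 and 266 kb upstream of the Sema3d start site.

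Of the 6 genes with peaks, Efnb2 was the one whose closest peak in the list was listed under another gene. Within 1 Mb of their start sites the list held 7 peaks for Sema3d, 6 each for Sema3a and Nrp2, 3 for Efnb2 and 2 each for Sema3c and Epha4, whichever gene the peaks were listed under.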
